A study of Mus musculus with 6 samples.

Results

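The 36 genes described here encode the machinery that copies DNA in S phase, and the cyclin and transcription factors that open that phase. Also in the set is Uhrf1, a chromatin reader that acts behind the fork. The rule names the genes by symbol, for what their proteins do, and uses no value to choose them. The choice was made with earlier results of these data known. For each gene the probe set annotated to that symbol alone was taken, and where there were several, the one with the highest mean over all 6 arrays. This gave a value for 35 of the 36 genes, out of 22180 genes measured in all. Rfc4, a subunit of the clamp loader, had no probe set of its own and was not analysed.

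The arrays were Affymetrix arrays of total RNA from MC3T3-E1 cells, a pre-osteoblast line from mouse calvaria. In the treated group, 3 samples had NU7441 at 1 µM, which blocks DNA-PKcs, the kinase subunit of DNA-dependent protein kinase. In the control group, 3 samples had the vehicle DMSO. Once confluent, the cells of both groups were given ascorbic acid (50 µg/ml) and β-glycerophosphate (10 mM), which drive osteoblast differentiation, and were harvested on day 14. The series concerns the phosphorylation of the coregulator alphaNAC by this kinase, and the comparison asks what blocking the kinase does to the transcripts of differentiating cells.

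The deposited values are on a log2 scale, 1 per probe set and array, so a difference of 1 is a doubling of array signal. Array medians lay between 6.38 and 6.42. Alkaline phosphatase (Alpl) averaged 9.92 in NU7441 and 9.38 in DMSO, and the type I collagen gene Col1a1 13.52 in NU7441 and 13.47 in DMSO, so osteoblast genes were present. Ptprc, which marks leukocytes, averaged 4.59 in NU7441 and 4.59 in DMSO, under the lower quartile of every array. The macrophage markers Itgam, Adgre1 and Csf1r averaged between the lower quartile and the median of the arrays. Cd68, another such marker, averaged 7.69 in NU7441 and 7.92 in DMSO, above every array median. Of the study's own genes, Naca, which encodes alphaNAC, differed by 0.02 (SE 0.06) and Prkdc, which encodes the inhibited kinase, by 0.04 (SE 0.06), NU7441 minus DMSO. Nothing in the labels says that replicates were separate cultures, and the p-values therefore cover the spread among these 6 samples, part or all of which may be technical. In whole-culture RNA, fewer cycling cells and less transcript per cell cannot be told apart.

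Replication starts at origins bound by the origin recognition complex. In G1 that complex, with Cdc6 and Cdt1, loads the ring of Mcm2 to Mcm7 on DNA, and at the onset of S phase Cdc45, the GINS complex and Mcm10 turn the ring into a running helicase. Polymerase alpha with primase lays primers, the clamp Pcna is loaded by replication factor C, polymerases delta and epsilon extend, and Fen1 and Lig1 join the fragments. Many of these genes are switched on by E2F transcription factors once cyclin-dependent kinases release them from the retinoblastoma family, and they go quiet in cells that leave the cycle. Osteoblasts divide early in culture and slow as the matrix matures.

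Since many of these genes are known E2F targets, their promoters were searched for the letters of E2F sites. The words searched on both strands were TTTCCCGC, TTTGGCGC, TTTCGCGC and TTTGCCGC, in the window from 250 bases before to 50 after each annotated start (RefSeq, build GRCm38.p6). The table held a promoter for 30 of the 36 genes. At least 1 of these words was found for 14 of the 30, or 46.7%, against 2.6% of all 27025 genes in the table. A gene with several starts counted if any of its windows had a match. Short words for other factors were searched in the same way. The Sp1 box GGGCGG was in 76.7% of the replication genes and 38.2% of all genes, the NF-Y box CCAAT in 60% and 41.1%, and the CHR element TTTGAA in 16.7% and 20.2%. A word may overlap another or its own reverse, and a match is a description of letters, not a shown binding site.

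The 5 promoters below show how such words lie in genes that varied widely between arrays, as the 170 bases that end just before the start, 5′ to 3′ on the gene's strand. Capitals mark E2F words in the first 4 and the CCAAT box in the last, Rrm2, whose window had no E2F word. Mcm6 (chr1:128359706-128359875, minus strand) had 3 words, of which 2 overlap. Mcm5 (chr8:75109339-75109508, plus strand) had 2 overlapping words. Cdc6 (chr11:98907981-98908150, plus strand) and Orc1 (chr4:108579284-108579453, plus strand) had 1 each, and Rrm2 lies at chr12:24708084-24708253, plus strand.
Mcm6: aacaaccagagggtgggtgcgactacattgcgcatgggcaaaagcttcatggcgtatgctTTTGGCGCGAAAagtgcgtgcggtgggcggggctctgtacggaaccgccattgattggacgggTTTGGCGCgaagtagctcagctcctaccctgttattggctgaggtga
Mcm5: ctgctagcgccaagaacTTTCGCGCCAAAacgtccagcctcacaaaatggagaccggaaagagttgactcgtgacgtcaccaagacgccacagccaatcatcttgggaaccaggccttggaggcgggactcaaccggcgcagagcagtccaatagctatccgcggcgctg
Cdc6: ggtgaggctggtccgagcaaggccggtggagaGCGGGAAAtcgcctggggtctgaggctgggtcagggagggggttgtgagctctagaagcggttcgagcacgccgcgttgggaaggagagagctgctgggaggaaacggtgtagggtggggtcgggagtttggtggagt
Orc1: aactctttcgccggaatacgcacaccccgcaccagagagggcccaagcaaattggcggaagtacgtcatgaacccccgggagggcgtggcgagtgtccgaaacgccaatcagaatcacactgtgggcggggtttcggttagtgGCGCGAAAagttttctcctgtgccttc
Rrm2: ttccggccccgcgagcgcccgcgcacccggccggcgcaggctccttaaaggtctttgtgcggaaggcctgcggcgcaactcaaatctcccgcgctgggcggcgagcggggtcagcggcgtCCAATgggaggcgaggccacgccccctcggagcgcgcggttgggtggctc

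Replication genes differed little between NU7441 and DMSO cells and a good deal between arrays of the same treatment. Against each gene's mean over the 6 arrays, the median of the 35 genes was 0.05, -0.15 and 0.25 in NU7441 1 to 3, against 0.04, -0.34 and 0.16 in DMSO 1 to 3. Arrays numbered 2 were thus the low ones and arrays numbered 3 the high ones in both groups, and the groups overlap. DMSO 2 gave the lowest of the 6 values for 31 of the 35 genes, where 21.7% of all genes were lowest there. NU7441 3 gave the highest value for 28 of 35, against 20.9% of all genes. Number 2 was the lowest array within both groups at once for 31 of the 35 genes, against 12.4% of all genes, and number 3 the highest within both for 27, against 15.6%.

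**Figure D1:**
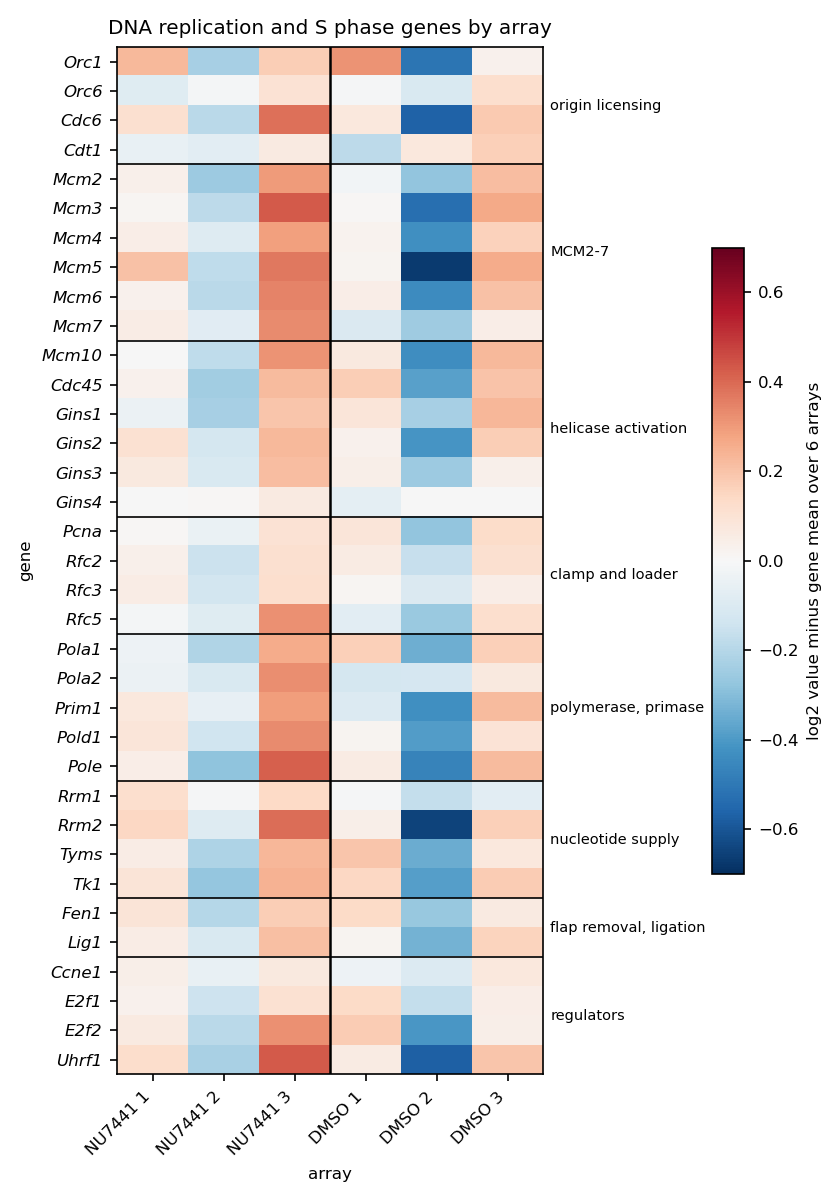
Log2 value of each of the 35 replication genes on each array (columns, NU7441 left of DMSO) minus the gene's mean over the 6 arrays, with genes grouped by role. DMSO 2 is blue in nearly every row, NU7441 3 is red, and Cdt1 and Gins4 do not follow the others.

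The difference NU7441 minus DMSO was above 0 for 31 of the 35 genes, against 51.3% of all genes, with a median of 0.11 against 0.00 over all genes. None of the 35 passed limma's test at an adjusted p under 0.05, as 0% of all genes did, the smallest adjusted p among them being 0.762. At an unadjusted p under 0.05 there were 0 of the 35, against 6.79% of all genes. In no gene did the 3 NU7441 values all lie above the 3 DMSO values (0 of 35, against 6.13% of all genes) or all below them (0 of 35, against 6.64%). The 95% interval of the difference excluded a 2-fold change of signal in either direction for all 35 genes and a 1.5-fold change for 26. Of all 22180 genes, 22001 had an interval that excluded a 2-fold change and 20515 one that excluded a 1.5-fold change.

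**Figure D2:**
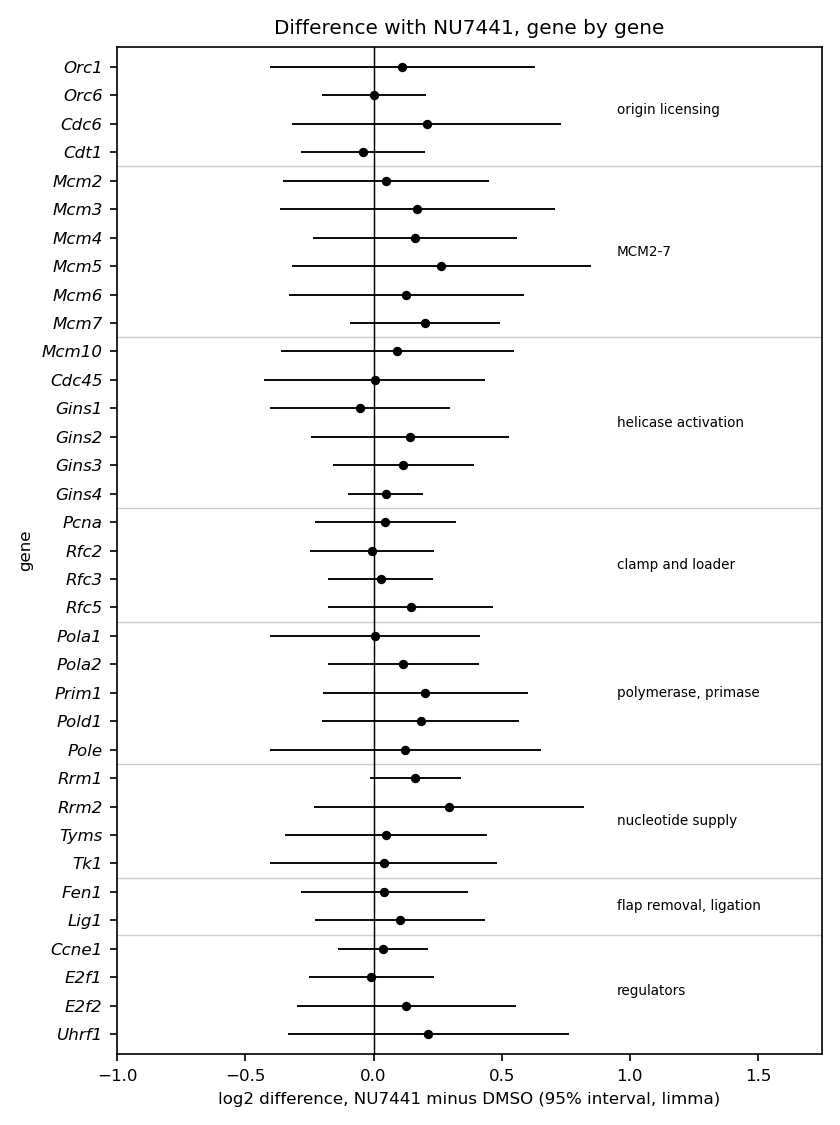
Log2 difference, NU7441 minus DMSO, of each gene with its 95% interval from limma (3 arrays a group), genes grouped by role. Every interval crosses 0, that of Rrm1 by the least, and the points run from -0.05 (Gins1) to 0.30 (Rrm2).

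Within arrays of the same number, the median difference of the 35 genes was 0.03 for number 1, 0.17 for number 2 and 0.11 for number 3. NU7441 was the higher array for 20, 33 and 30 of the 35 genes in these 3 pairs, against 10783, 10976 and 11505 of all 22180 genes. It was higher in all 3 pairs for 17 genes, against 16% of all genes, and lower in all 3 for 0, against 16.6%. With the number as a block in limma, again 0 genes passed (smallest adjusted p 0.499, 0% of all genes), and 6 had an unadjusted p under 0.05, all with the higher mean in NU7441. These were Mcm5, Mcm7, Pold1, Rrm1, Rrm2 and Uhrf1, and 4.71% of all genes met the same rule. A further setting, the block with an intensity trend and a robust prior, called 0.451% of all genes and 0 of the 35, whose smallest adjusted p in limma was 0.173, for Rrm1.

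**Figure D3:**
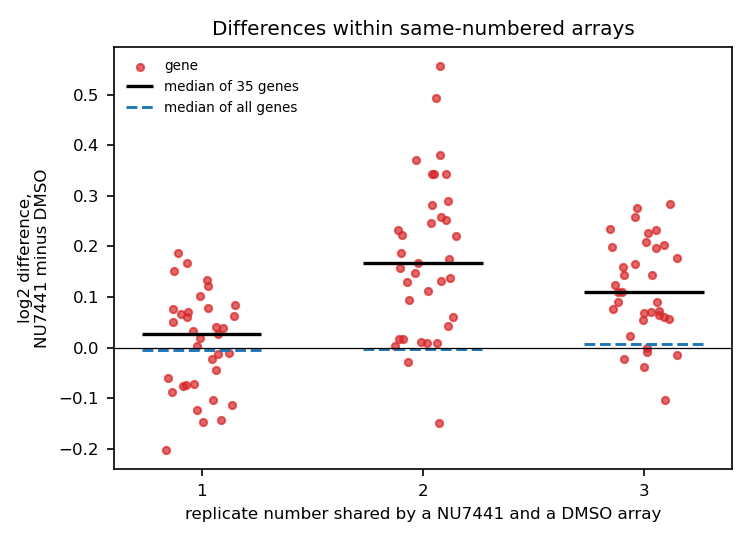
Log2 difference, NU7441 minus DMSO, between arrays of the same number, with 1 point per replication gene, a black bar for the median of the 35 and a dashed blue bar for the median of all genes. The medians are 0.03, 0.17 and 0.11, and 20, 33 and 30 of the 35 points lie above 0. Of all 22180 genes, 10783, 10976 and 11505 were higher in NU7441.

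The median rested on single arrays. It was -0.04, with 9 of 35 genes above 0, without DMSO 2, and 0.00, with 18 of 35 above 0, without NU7441 3. It was 0.20 without NU7441 2, 0.17 without DMSO 3, 0.15 without DMSO 1 and 0.11 without NU7441 1. Without both arrays numbered 2 it was 0.06, with 28 of 35 genes above 0. With limma's array weights, which count arrays that deviate from the fit for less, it was 0.02, with 20 of 35 above 0.

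**Figure D4:**
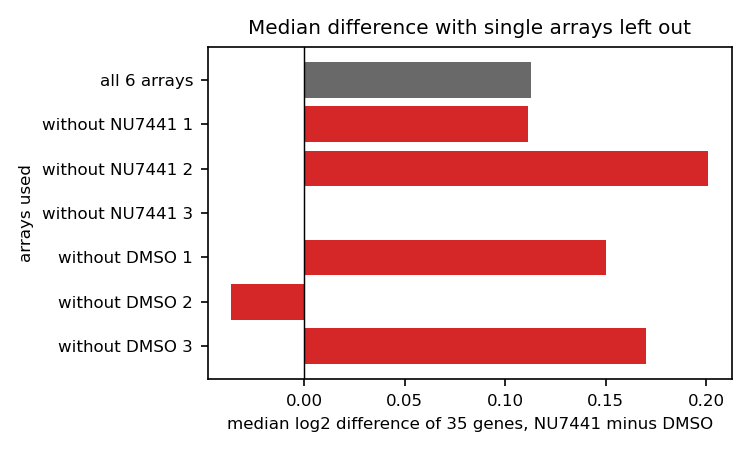
Median log2 difference, NU7441 minus DMSO, of the 35 replication genes with all 6 arrays (grey) and with 1 array left out (red). The bar is below 0 without DMSO 2, near 0 without NU7441 3 and between 0.11 and 0.20 without any of the other 4.

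In a model with treatment and replicate number, number 3 minus number 2 had a median of 0.47 over the 35 genes, against 0.00 over all genes. The limma F test of the number, chosen after the array medians were seen, gave an unadjusted p under 0.05 for 27 of the 35, against 10.2% of all genes. After adjustment it called 0 of the 35 and 0% of all genes, the smallest adjusted p among the 35 being 0.300. Within a group, the gap between the highest and lowest array had a median of 0.42 in NU7441 and 0.49 in DMSO for these genes, against 0.18 in NU7441 and 0.21 in DMSO for all genes. Mitosis genes, 27 measured, showed the pattern more strongly, with a median of 0.60 for number 3 minus number 2. The same limma F test gave an unadjusted p under 0.05 for all 27 and called 0 after adjustment. Number 2 was the lowest array within both groups for all 27. Their gap within a group had a median of 0.53 in NU7441 and 0.66 in DMSO. No label says what a shared number stands for.

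Origin licensing genes showed both the common pattern and its exceptions. Cdc6, the loader of the MCM ring, was at 7.90, 7.60 and 8.17 in NU7441 1 to 3, against 7.86, 7.22 and 7.97 in DMSO 1 to 3. Its groups overlap, number 2 was the low array in each, and the difference was 0.21 (SE 0.22, limma adjusted p = 0.883). Orc1, the ATPase subunit of the origin recognition complex, was at 6.66, 6.20 and 6.60 in NU7441, against 6.75, 5.92 and 6.46 in DMSO. Here the high array of each group was number 1, and the difference was 0.11 (SE 0.22). Orc6, the smallest subunit of that complex, differed by 0.00 (SE 0.09).

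Cdt1, which brings the MCM ring to the origin and is destroyed once S phase begins, did not follow. It stood at 8.78, 8.76 and 8.90 in NU7441, against 8.65, 8.91 and 9.002 in DMSO. Its lowest array was DMSO 1, DMSO 2 was the second highest, and the difference was -0.04 (SE 0.10).

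All 6 MCM2-7 genes had the higher mean in NU7441, with differences from 0.05 (Mcm2) to 0.26 (Mcm5) and a median of 0.17. Mcm5 was at 9.85, 9.46 and 10.01 in NU7441, against 9.66, 8.97 and 9.90 in DMSO. DMSO 2 was the lowest of the 6 arrays and NU7441 3 the highest, and the difference had an SE of 0.25 without pairs and 0.09 with the number as a block (limma adjusted p = 0.866 and 0.517). Mcm7 was at 9.68, 9.55 and 9.96 in NU7441, against 9.53, 9.39 and 9.68 in DMSO.

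The groups of Mcm7 overlap, and within each pair NU7441 was higher, by 0.15, 0.17 and 0.28. Its difference of 0.20 (SE 0.12, limma adjusted p = 0.811) was between 0.09 and 0.29 with any 1 array left out. Mcm2, Mcm3, Mcm4, Mcm5 and Mcm6 were each below 0 without DMSO 2 or without NU7441 3. Mcm6, whose promoter is printed above with 3 E2F words, was at 9.48, 9.26 and 9.80 in NU7441, against 9.49, 9.01 and 9.65 in DMSO.

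Among the genes that activate the helicase, 5 of 6 had the higher mean in NU7441, with a median difference of 0.07. Mcm10, which is needed to start unwinding, was at 7.53, 7.36 and 7.85 in NU7441, against 7.60, 7.10 and 7.76 in DMSO. Cdc45, the partner of the ring in the running helicase, averaged 7.61 ± 0.23 in NU7441 and 7.61 ± 0.33 in DMSO (SD, n = 3 each). The 4 GINS subunits form 1 complex, yet their transcripts did not behave alike.

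Gins2 spread over 0.35 in NU7441 and 0.58 in DMSO, while Gins4 spread over 0.07 in NU7441 and 0.06 in DMSO. Gins4 was at 9.96, 9.97 and 10.02 in NU7441, against 9.89, 9.96 and 9.96 in DMSO, so DMSO 2 was not low for it. Gins1 was the one GINS gene with the lower mean in NU7441, by -0.05 (SE 0.15), and Gins3 differed by 0.12 (SE 0.12).

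Clamp and loader transcripts varied the least of the 8 roles in median, with a gap between the highest and lowest array of a group of 0.26 in NU7441 and 0.32 in DMSO. Pcna, the clamp that holds polymerases on DNA, was at 11.24, 11.19 and 11.34 in NU7441, against 11.32, 10.95 and 11.36 in DMSO. Only DMSO 2 stands apart there, and the difference was 0.05 (SE 0.12). The loader subunits Rfc2, Rfc3 and Rfc5 differed by -0.00 (SE 0.10), 0.03 (SE 0.09) and 0.14 (SE 0.14).

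All 5 polymerase and primase genes had the higher mean in NU7441, with a median of 0.12. Pole, the catalytic subunit of the leading-strand polymerase, was at 8.64, 8.31 and 9.01 in NU7441, against 8.65, 8.12 and 8.81 in DMSO. Its arrays numbered 2 and 3 lay 0.69 apart on average, against a difference of 0.12 (SE 0.22) between treatments. Prim1, the catalytic primase subunit, was at 8.45, 8.32 and 8.67 in NU7441, against 8.28, 7.95 and 8.60 in DMSO.

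NU7441 was the higher in each pair for Prim1, by 0.17, 0.37 and 0.07, and the difference was 0.20 (SE 0.17). Pold1, the catalytic subunit of the lagging-strand polymerase, differed by 0.18 (SE 0.16), higher in each pair by 0.07, 0.25 and 0.23. Pola1 and Pola2, subunits of the priming polymerase, differed by 0.01 (SE 0.17) and 0.12 (SE 0.13).

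The genes that supply deoxynucleotides held both the largest difference of the set and the smallest p. Rrm2, the regulated subunit of ribonucleotide reductase, was at 9.09, 8.85 and 9.34 in NU7441, against 8.98, 8.295 and 9.11 in DMSO. Its difference of 0.30 (SE 0.22, limma adjusted p = 0.835) became 0.04 without DMSO 2. Rrm1, the large subunit of the same enzyme, was at 11.35, 11.22 and 11.37 in NU7441, against 11.23, 11.06 and 11.16 in DMSO.

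For Rrm1 the groups overlap only where NU7441 2 and DMSO 1 meet. The difference was 0.16 (SE 0.08), with a 95% interval from -0.01 to 0.34 (limma adjusted p = 0.762), and it was between 0.12 and 0.21 with any 1 array left out. Tyms, which makes thymidylate, and Tk1, the salvage kinase for thymidine, differed by 0.05 (SE 0.17) and 0.04 (SE 0.19). Both were below 0 without DMSO 2, at -0.11 and -0.14.

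Fen1, the flap nuclease, and Lig1, the replicative ligase, differed by 0.04 (SE 0.14) and 0.10 (SE 0.14). Lig1 was at 8.79, 8.63 and 8.95 in NU7441, against 8.75, 8.40 and 8.89 in DMSO, the order of the arrays being that of the whole set. A second probe set of Fen1 had a value of 0.01 in DMSO 2 against its own mean, where the probe set used had -0.26. It was the dimmer of the 2. Dimmer second probe sets of Pole and Rrm2 likewise did not show the low DMSO 2 value in full (0.16 and -0.10, against -0.47 and -0.65). That of Rrm2 averaged 4.10, under the lower quartile of every array, and that of Pole 5.57, under every array median. At such levels a fall may not be seen, and signal over background was not analysed.

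The regulators differed in how far they followed. Uhrf1, which reads hemimethylated DNA behind the fork, was at 9.32, 8.97 and 9.62 in NU7441, against 9.25, 8.63 and 9.39 in DMSO, a difference of 0.21 (SE 0.23). E2f1, an activator of S phase genes, was at 9.29, 9.11 and 9.36 in NU7441, against 9.39, 9.09 and 9.303 in DMSO, a difference of -0.01 (SE 0.10). Its relative E2f2 differed by 0.13 (SE 0.18), and Ccne1, the cyclin of the G1 to S transition, by 0.04 (SE 0.07).

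The swing between arrays, number 3 minus number 2, was 0.15 for Ccne1 and 0.23 for E2f1. Among the other genes it ran from 0.03 for Gins4 and 0.12 for Cdt1 to 0.66 for Cdc6 and 0.74 for Mcm5. Rrm1, at 0.12, was also below Ccne1, and Orc6, at 0.17, and Rfc3, at 0.20, were below E2f1. Split by promoter letters, the 14 genes with an E2F word had a median of 0.48 for number 3 minus number 2 and a range from 0.12 to 0.74. The 15 measured genes without one had a median of 0.39 and a range from 0.12 to 0.65, so the 2 sets overlap over nearly their whole length. Their median differences between NU7441 and DMSO were 0.13 with the word and 0.05 without it.

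Of 52 other replication genes, covering further origin, helicase, polymerase, fork and chromatin assembly factors, 50 were measured. Of these, 32 had the higher mean in NU7441, the median difference was 0.02, and 0 passed limma's test over all genes or had an unadjusted p under 0.05. Their median per array was 0.02, -0.08 and 0.12 in NU7441, against 0.02, -0.12 and 0.08 in DMSO, the same low and high numbers with a smaller swing. The smallest p belonged to Samhd1, which breaks down deoxynucleotides, at 0.19 (SE 0.08), and Rpa2, of the single-strand binding complex, at 0.19 (SE 0.09). Dut, which clears dUTP, was at 8.69, 8.72 and 8.71 in NU7441, against 8.79, 8.80 and 8.81 in DMSO, a difference of -0.09 (SE 0.06).

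The G1 to S control genes, 26 measured of 27, were split evenly, 13 with the higher and 13 with the lower mean in NU7441, with a median difference of 0.00 and 0 passing limma's test. Unadjusted, 2 of the 26 had a p under 0.05, a share near the 6.79% of all genes. Of the 26, 11 were lowest in DMSO 2, against 21.7% of all genes. The limma F test of the number gave an unadjusted p under 0.05 for 8, against 10.2%. E2f7 and E2f8, picked out after their values were seen, had 0.81 and 0.90 for number 3 minus number 2, above every one of the 35. E2f4, the repressive E2F of resting cells, was at 9.03, 9.01 and 8.95 in NU7441, against 9.14, 9.28 and 9.22 in DMSO, so its groups did not overlap, and it differed by -0.22 (SE 0.07, limma adjusted p = 0.698). Cdk6, a kinase that acts on the retinoblastoma protein, was at 10.93, 10.92 and 11.05 in NU7441, against 10.69, 10.60 and 10.92 in DMSO, a difference of 0.23 (SE 0.10, limma adjusted p = 0.733). Rbl1, the retinoblastoma relative that E2F factors are known to induce, differed by 0.24 (SE 0.14) and Myc by -0.01 (SE 0.16).

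Inhibitors of the cyclin-dependent kinases were not alike across arrays. Their median per array, over 7 genes, stayed between -0.02 and 0.01 in NU7441 and between -0.06 and -0.01 in DMSO. Cdkn1a, which encodes p21, was at 12.39, 12.34 and 12.44 in NU7441, against 12.40, 12.48 and 12.54 in DMSO, a difference of -0.08 (SE 0.07). Cdkn1b, which encodes p27, differed by -0.07 (SE 0.08), and neither passed limma's test. Of the 7, 3 were lowest in DMSO 2, among them Cdkn2d, which encodes p19. Cdkn2d, picked out after its values were seen, was at 7.33, 7.23 and 7.35 in NU7441, against 7.51, 7.06 and 7.33 in DMSO, so number 2 was its low array in each group.

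Other gene lists moved with the low DMSO 2 value. The median of 27 mitosis genes was 0.07, -0.23 and 0.31 in NU7441, against 0.16, -0.48 and 0.16 in DMSO. Amino acid stress and unfolded protein genes (the ATF4 and endoplasmic reticulum response, 23 genes) ran the other way in that array, with medians of -0.26, -0.14 and -0.15 in NU7441, against -0.32, 0.62 and 0.15 in DMSO. One of them, the co-chaperone gene Dnajb9, was at 9.36, 9.45 and 9.53 in NU7441, against 9.55, 10.41 and 9.71 in DMSO. Markers of macrophages, endothelium, muscle and fat had medians between -0.18 and 0.15 in the NU7441 arrays and between -0.14 and 0.12 in the DMSO arrays, and between -0.09 and 0.02 in DMSO 2. One fat marker, Fabp4, a fatty acid carrier picked out after its values were seen, stood apart from its list. It was at 4.57, 5.04 and 5.00 in NU7441, against 5.65, 6.23 and 5.72 in DMSO, so the groups did not overlap and DMSO 2 was the highest array. Its difference was -0.99 (SE 0.19, limma adjusted p = 0.598), and with the number as a block, an intensity trend and a robust prior its adjusted p in limma was 0.0211. Plin1, which coats fat droplets, was lowest in DMSO 2, and Adipoq, the fat cell hormone, averaged 5.18 in NU7441 and 5.10 in DMSO. The part of the stress response or of Fabp4 in the replication result was not tested.

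**Figure D5:**
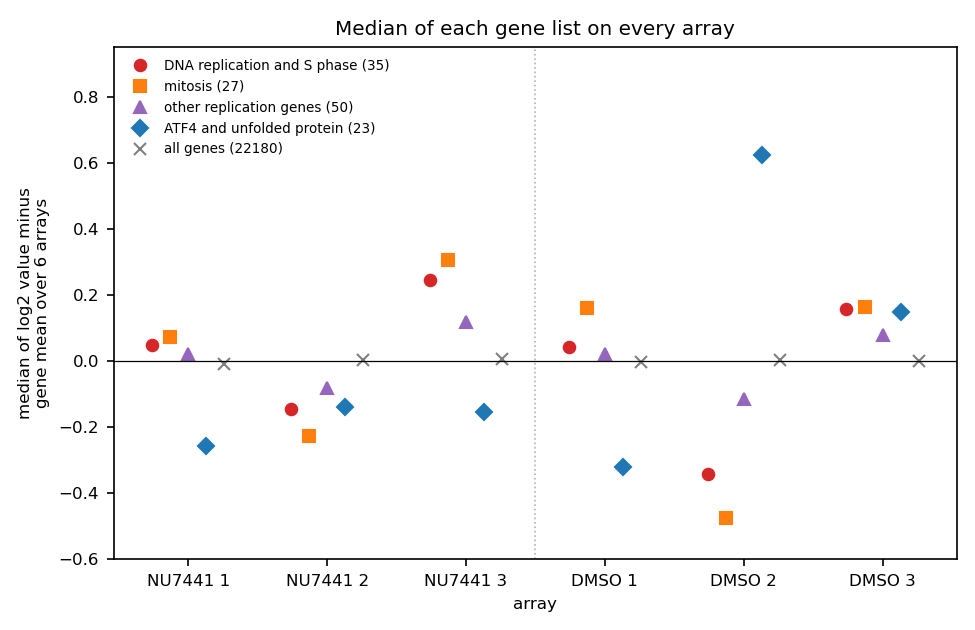
Median, on each array, of the log2 values of 5 gene sets minus each gene's mean over the 6 arrays, NU7441 left of DMSO. Replication and mitosis genes are lowest in DMSO 2, where the ATF4 and unfolded protein genes are highest at 0.62, and all genes stay near 0.

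Genes outside the lists that followed the replication genes most closely were ranked by Pearson's r with the median of the 35 over the 6 arrays, a description of 6 points that share their arrays. The 35 genes, which are part of that median, had a median r of 0.95, while Cdt1 had 0.13 and Gins4 0.26. The 27 mitosis genes, which are not part of it, had a median r of 0.97. Of the 100 genes with the highest r among all 22180, 11 were from the 35 replication genes of the set. Another 9 were from the 50 other replication genes and 13 from the 27 mitosis genes. In naming genes outside every list, predicted genes and microRNA, olfactory receptor and immunoglobulin genes were passed over. The first 5 of the rest were Krtap21-1, a hair keratin-associated gene, Ncaph and Smc2, which are condensin subunits, Pimreg and Cdca2. Ncaph was at 8.92, 8.58 and 9.19 in NU7441, against 8.85, 8.27 and 9.04 in DMSO. Krtap21-1 lay between 4.51 and 5.12 in NU7441 and between 4.27 and 4.97 in DMSO, under the lower quartile of each array, where signal over background was not analysed here.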

How the data were processed

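Total RNA of MC3T3-E1 cells was hybridised to 6 Affymetrix arrays, 3 for NU7441 and 3 for DMSO. Groups and replicate numbers came from the labels. The authors deposited a log2 expression value for each probe set on each array. The log2 scale was inferred from the span of the values. How background was corrected and arrays normalized is not given in the sources used here. No further normalization or filter on level was applied, and 0 columns of other samples were present.

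Of 41345 probe sets, 23521 had 1 gene symbol in the platform annotation, 1814 had several and 16010 had none. The brightest probe set per symbol left 22180 genes. Differences are NU7441 minus DMSO. They were tested with limma 3.58.1 under R 4.3.3 by lmFit with eBayes, treatment being the only term, two-sided, and adjusted by Benjamini-Hochberg over all genes at 0.05. The test was tried on simulated data. Figures used matplotlib 3.10.9.

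The genes, lists, motifs and alternatives were chosen with earlier results of these data known. Every replication gene may be named. From other lists the text names some of the genes with the smallest p, a few genes fixed by name and holders of an extreme. The cell type markers named, such as Ptprc, Col1a1 and Sp7, do not follow a ranking by p. Dimmer second probe sets, Cdkn2d, Fabp4, E2f7, E2f8, and Ccne1 and E2f1 as a pair were picked out after their values were seen.

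Both groups carry numbers 1 to 3. Over genes, deviations from the group means correlated at 0.149, 0.169 and 0.339 within the 3 same-numbered pairs. Across numbers the correlation lay between -0.25 and 0.09. By the rule of over 0.1 in each pair the numbers were taken as pairs, which rests on the values alone. The number of arrays limits the precision.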

Additional observations from a re-analysis of the deposited data

How the results depend on the processing

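No replication gene passed limma at an adjusted p under 0.05 in the reported test or under any alternative run. The replicate number as a block changed no call and turned no sign among the 35, and the block with an intensity trend and a robust prior called 100 of all genes and 0 of the 35. The trend and robust prior alone turned 0 signs, as did restriction to the brighter 75 or 50 percent of genes and averaging each gene's probe sets. Other scalings turned only differences near 0: quantile normalization gave 0.021 for Rfc2 and 0.024 for E2f1, and median centring gave -0.015 for Orc6, -0.012 for Cdc45 and -0.011 for Pola1. The share of all genes with the higher mean in NU7441 was 53.1% and 45.1% under these scalings, and the replication genes had 33 and 28 of 35. Array weights left 20 of 35 above 0 and turned 11: -0.031 for Orc6, -0.052 for Mcm2, -0.020 for Mcm10, -0.10 for Cdc45, -0.0082 for Pcna, -0.011 for Rfc3, -0.092 for Pola1, -0.011 for Pole, -0.039 for Tyms, -0.066 for Tk1 and -0.028 for Fen1. The cause was not tested. With 1 array or 1 pair left out, the number of the 35 with the higher mean in NU7441 ran from 9 to 35. The signs of 27 genes turned in at least 1 such fit, most often without DMSO 2 (22 genes) or NU7441 3 (13). Of the licensing and helicase genes, Orc1 ran from -0.12 to 0.30, Orc6 from -0.052 to 0.060, Cdc6 from -0.025 to 0.35, Cdt1 from -0.14 to 0.035, Mcm2 from -0.087 to 0.19, Mcm3 from -0.050 to 0.35 and Mcm4 from -0.013 to 0.28. Mcm5 ran from -0.0058 to 0.46, Mcm6 from -0.060 to 0.26, Mcm10 from -0.10 to 0.23, Cdc45 from -0.18 to 0.13, Gins1 from -0.18 to 0.050 and Gins2 from -0.029 to 0.26. At the fork, Pcna ran from -0.082 to 0.12, Rfc2 from -0.085 to 0.070, Rfc3 from -0.024 to 0.10, Pola1 from -0.16 to 0.11, Pola2 from -0.017 to 0.20 and Pole from -0.078 to 0.30. Tyms ran from -0.11 to 0.17, Tk1 from -0.14 to 0.19, Fen1 from -0.079 to 0.15 and Lig1 from -0.036 to 0.21. Ccne1 ran from -0.0029 to 0.084, E2f1 from -0.093 to 0.063, E2f2 from -0.045 to 0.25 and Uhrf1 from -0.017 to 0.38. The other 8 genes, Mcm7, Gins3, Gins4, Rfc5, Prim1, Pold1, Rrm1 and Rrm2, were above 0 in all of these fits. Signal over background was not analysed here.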

Other observations

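Osteoblast genes ran alongside the replication genes in part. The median of 11 measured osteoblast markers was -0.04, 0.10 and 0.67 in NU7441 1 to 3, against -0.54, -0.51 and 0.20 in DMSO 1 to 3, and the median difference was 0.48, 0.61 and 0.47 in the pairs numbered 1, 2 and 3. Number 3 was the high array in each group, as for the replication genes, but DMSO 1 was as low as DMSO 2. Osterix (Sp7), a transcription factor of osteoblasts, was at 10.46, 10.67 and 11.16 in NU7441, against 10.04, 9.96 and 10.69 in DMSO, and did not pass limma's test over all genes (adjusted p = 0.755). With the number as a block, an intensity trend and a robust prior, its adjusted p in limma was 0.0172, a setting under which 0 of the 35 replication genes passed.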
